A study of Mus musculus with 3 samples.

Results

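The genes described are 10 homeobox transcription factor genes of the forebrain and the eye field: Vax1, Vax2, Rax, Six3, Six6, Lhx2, Pax6, Pax2, Otx2 and Hesx1. They were measured in mouse embryos of stage E8.75, in RNA from whole embryos that had received no treatment. Each of 3 arrays held RNA of wild-type embryos in the Cy3 channel and RNA of Brpf1-deficient embryos in the Cy5 channel, as labelled, which makes 3 pairs and no array with the dyes exchanged. Dye and genotype therefore cannot be told apart. The labels give no allele, strain, Cre driver or number of embryos in an RNA, so the spread between these 3 pairs may be technical. Each SE below is a limma moderated SE, in which a gene's spread over the pairs is drawn toward that of all genes. It is smaller than the pairs alone would give for Rax and Hesx1, and larger for Vax2. The genes were chosen by name, with the Cy5 over Cy3 ratios of these arrays already known, so those ratios and their p-values are given as a description and are not independent evidence. By RefSeq accession, or by gene name in the authors' deposited table, 16 of the 55681 non-control probes belong to these genes, on 17 spots. All 10 genes have a probe, 5 of them have several, and 8 could be tested.

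These genes work in one tissue programme. Otx2 and Hesx1 mark the anterior neural plate, where Otx2 is needed for head formation and Hesx1, a repressor, for the forebrain and pituitary. Rax, Six3, Six6, Lhx2 and Pax6 act in the eye field, the part of the anterior neural plate that bulges out as the optic vesicles around this stage. Vax1, Vax2 and Pax2 mark the ventral side of the eye and the optic stalk, which form under Hedgehog signalling from the midline. Brpf1 encodes a scaffold of histone acetyltransferase complexes.

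A log2 ratio here is the intensity of Cy5 over that of Cy3 after loess normalization within an array, so a value above 0 means a brighter Cy5 channel. The array's only Brpf1 probe was itself brighter in Cy5, with log2 ratios of 2.01, 1.43 and 1.06 in pairs 1, 2 and 3 that averaged 1.50 ± 0.19 (SE, n = 3; limma adjusted p = 0.0404). Where this probe lies relative to the disrupted part of Brpf1 was not analysed here. A brighter signal is opposite to a loss of Brpf1 RNA, but whether it goes against the label cannot be told here. Every direction in the text therefore refers to the dye channel, Cy5 being the channel labelled Brpf1-deficient. Of 15 markers of embryonic neural, heart, somite, gut and vessel tissue, 15 were well above background in both channels of all arrays. The same held for all 15 markers of visceral endoderm and yolk sac and for the 10 tested markers of trophoblast and decidua. Of that last list 11 of 12 genes were on the array, and Tpbpa was too dim to be tested. All 10 markers of primitive blood were also above background.

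Vax2, a regulator of the ventral optic cup, had more signal in Cy5 in every pair. As median spot intensity it gave 1028, 1030 and 1136 in Cy3 of pairs 1, 2 and 3, and 2767, 1852 and 2778 in Cy5. The scanned Cy5 signal is brighter for most probes, with a median Cy5 over Cy3 ratio of 1.76, 1.35 and 1.65 over the probes kept, so scanned values are read against that level. After normalization the log2 ratios of Vax2 were 0.68, 0.63 and 0.62. They averaged 0.64 ± 0.08 (SE, n = 3), which is 1.56-fold. Its normalized log2 intensities were 10.34 ± 0.25 (SD, n = 3) in Cy3 and 10.98 ± 0.24 in Cy5, and the channels did not overlap. Over the pairs the ratio of Vax2 had an SD of 0.035, lower than that of most genes (the 4.07th percentile of the genes tested, whose median was 0.159).

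Vax2 passed the threshold in the fit over all 23554 genes (limma adjusted p = 0.0364), and none of the other 7 tested members did. The background of such calls was 1.29% of genes higher and 0.0934% lower in Cy5. Without pair 1, 2 or 3 the adjusted p of Vax2 was 0.296, 0.0769 and 0.165, at ratios of 0.62, 0.65 and 0.65. It was 0.291 when genes with a mean log2 intensity above 16, all far brighter than Vax2, were left out of the fit, and over all alternatives it ranged from 0.0276 to 0.296. In the fits without a pair or without the bright genes, no gene on the array passed. The size of the ratio of Vax2 moved between 0.51 and 0.66.

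**Figure D1:**
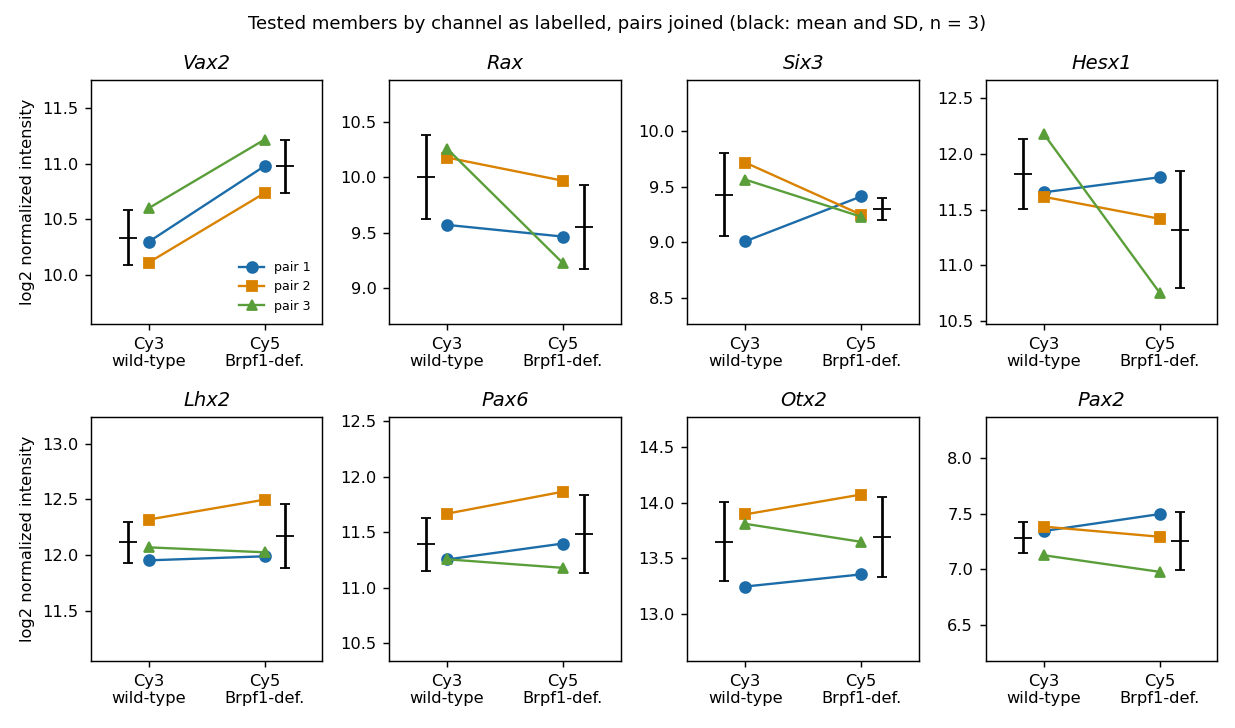
Normalized log2 intensity (y axis) of the 8 tested members in the Cy3 and Cy5 channels (x axis), with the values of a pair joined by a line and the mean and SD of 3 arrays in black. Each panel spans the same range of log2 units. The lines of Vax2 rise alike in all pairs, those of Rax and Hesx1 fall most steeply in pair 3, and the lines of Lhx2, Pax6 and Otx2 are close to level.

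Vax1, the paralogue that acts with Vax2 in the optic stalk and ventral forebrain, was too dim to be tested. Its brighter probe had median spot intensities of 77, 97 and 86 in Cy3, where the local background was 41, 43 and 46. In Cy5 they were 169, 189 and 157 over a background of 108, 131.5 and 120. This probe was well above background on 1 array in Cy3 and on none in Cy5, and its log2 ratios of 0.34, 0.24 and 0.09 rest on that signal. The second Vax1 probe was well above background on no array and had 0.02, 0.08 and -0.10. For the brighter probe the authors' deposited table lists a log2 ratio of -0.83 (adjusted p = 0.332). That table runs the other way round, since it correlates at -0.802 with the ratios computed here over 39915 shared probes, so the authors' value stands for 0.83 as Cy5 over Cy3.

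The eye field genes divided into those that lay near 0 in all pairs and those whose pairs differed. Pax6, the regulator of eye and lens identity, had median spot intensities of 2011.5, 3048.5 and 1790.5 in Cy3 and 3759.25, 3900.25 and 2700.5 in Cy5, as means of 2 spots. Its log2 ratios were 0.14, 0.20 and -0.08, with a mean of 0.09 ± 0.09 (SE, n = 3; limma adjusted p = 0.641). A second, dim Pax6 probe was well above background on 1 array in Cy3 only and had 0.08, 0.65 and -0.70. Lhx2, a LIM homeobox factor that the optic vesicle needs to become an optic cup, had 3287, 4770.5 and 3156 in Cy3 and 5826, 6046 and 4951 in Cy5. Its log2 ratios were 0.04, 0.18 and -0.04, with a mean of 0.06 ± 0.09 (adjusted p = 0.757). For both genes the channels overlapped and the mean ratio was no larger than its error.

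Rax, the first gene known to be needed for the eye field to form optic vesicles, was below 0 in all pairs but by unequal amounts. The spots read 616, 1079 and 917 in Cy3, and Cy5 read 950.5, 1102 and 694. The log2 ratios were -0.11, -0.21 and -1.03 in pairs 1, 2 and 3, so that pair 3 had 2.04-fold more signal in Cy3. The mean was -0.45 ± 0.20 (SE, n = 3; limma adjusted p = 0.328). Without pair 3 it was -0.16, and the normalized channels overlapped.

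Six3, which keeps Wnt signals out of the anterior neural plate, changed sign between pairs. Its brighter probe read 389, 747 and 533 in Cy3, while Cy5 read 856, 644 and 651. The log2 ratios were 0.40, -0.47 and -0.33, with a mean of -0.13 ± 0.19 (SE, n = 3; limma adjusted p = 0.733). In normalized intensity the Cy5 values of Six3 lay close together (SD 0.101) and the Cy3 values further apart (SD 0.373), lowest in pair 1. A second Six3 probe, named by the deposited table, was well above background on no array and had -0.51, -0.39 and -0.31. Six6, a close relative of Six3 in the retina and pituitary, was not tested, being well above background on 1 array in Cy3 and on none in Cy5. Its Cy3 intensities were 82.5, 132 and 99 and its Cy5 intensities 113.5, 247 and 181, and its log2 ratios were -0.34, 0.22 and 0.09.

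Of the anterior neural plate genes, Otx2 was bright and near 0, while Hesx1 had the widest spread of all members. The brighter Otx2 probe had 7799, 13612 and 10183 in Cy3 and 15619.5, 18863 and 15700 in Cy5. Its log2 ratios were 0.11, 0.18 and -0.16, with a mean of 0.04 ± 0.10 (SE, n = 3; limma adjusted p = 0.852). A dimmer Otx2 probe, above background in both channels of all arrays, had ratios of the same signs but larger, at 0.13, 0.65 and -0.35.

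Hesx1 had median spot intensities of 2665, 2951 and 3421 in Cy3 and 5014.5, 2896 and 2051 in Cy5. Its log2 ratios were 0.14, -0.20 and -1.43, and in pair 3 the Cy3 signal was 2.69-fold that of Cy5. In normalized log2 intensity pair 3 held both the highest Cy3 value (12.2, against 11.7 and 11.6) and the lowest Cy5 value (10.8, against 11.8 and 11.4). The mean ratio was -0.50 ± 0.31 (SE, n = 3; limma adjusted p = 0.444), and without pair 3 it was -0.03. The SD of Hesx1 over the pairs was 0.825 and that of Rax 0.507, at the 98.8th and 94.6th percentile of the genes tested.

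Pax2, a gene of the optic stalk that is also active in the otic placode, the midbrain-hindbrain boundary and the intermediate mesoderm, was measured near background. The brightest of its 3 probes had 115, 136 and 122 in Cy3 over a background of 49, 64 and 81, and 218, 220 and 203.5 in Cy5 over 124, 181 and 194. It was well above background on 2 arrays in Cy3 and on none in Cy5. Its log2 ratios were 0.15, -0.09 and -0.15, with a mean of -0.03 ± 0.10 (SE, n = 3; limma adjusted p = 0.894). The other Pax2 probes had the same signs in all pairs. Of 13 tested genes listed for those other sites of Pax2, none passed the threshold in limma and 4 had an unadjusted p below 0.05, as did 17.3% of all genes. Among these, Pax8 (mean log2 ratio 0.55 ± 0.19) and Lhx1 (0.36 ± 0.12) lay above 0 and Ret (-0.34 ± 0.09) below it.

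**Figure D2:**
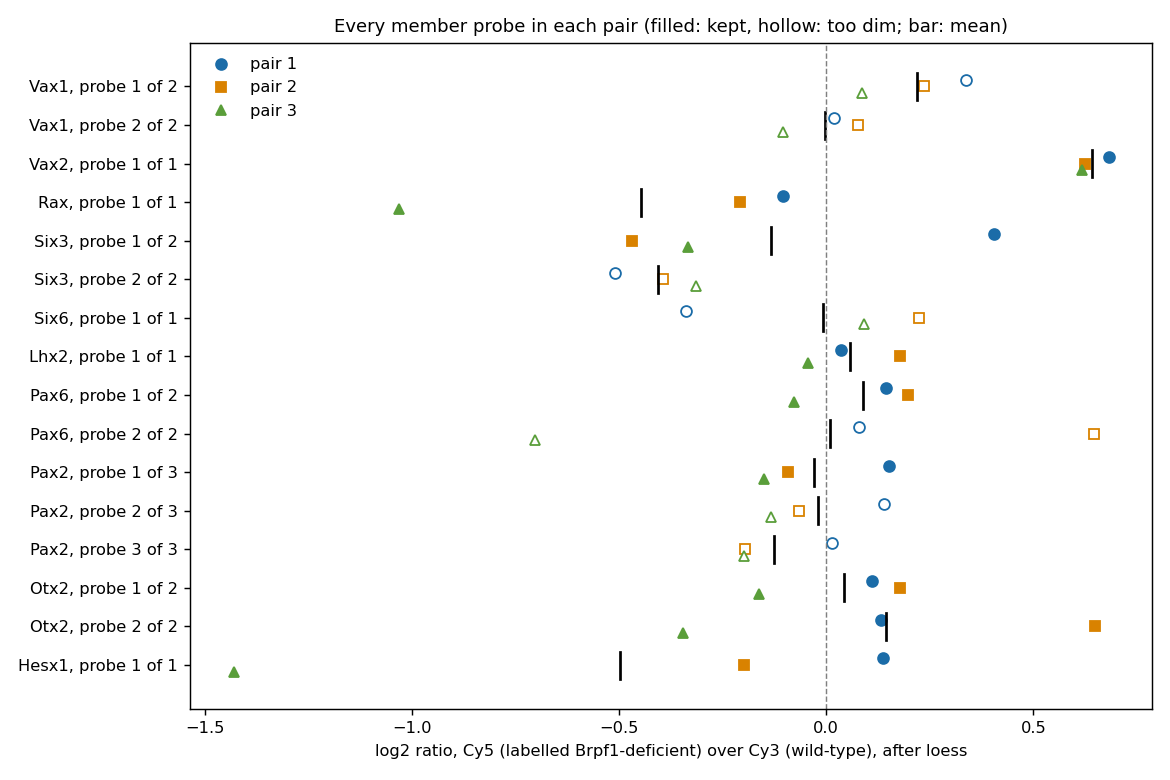
Log2 ratio of Cy5 over Cy3 (x axis) for each of the 16 member probes (y axis), with 1 marker per pair and a bar at the mean. Filled markers are probes kept for the tests and hollow ones were too dim. Among kept probes, that of Vax2 is the one whose pairs cluster away from 0. The hollow probe of Six3 does so too, from -0.51 to -0.31. Pair 3 is the leftmost value of Rax and Hesx1, and the hollow probe of Pax6 is spread from -0.70 to 0.65.

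Read by pair, the tested members lay mostly above 0 in pair 1 and mostly below it in pair 3. Of 8 tested members, 1 was below 0 in pair 1, 4 in pair 2 and 7 in pair 3, and over all genes the shares below 0 were 52.8%, 54.8% and 51.1%. The medians of the members were 0.14, 0.04 and -0.16, and 0.01 for the mean ratios, against -0.02 over all genes. In all 3 pairs 1 member, Vax2, was above 0 and 1 member, Rax, below 0, where 19.7% and 23.8% of all genes were. With channels that did not overlap, 1 member, Vax2, was brighter in Cy5 and 0 in Cy3, against backgrounds of 8.55% and 11.1%. Nothing is read from these counts, because the members were chosen with the ratios known and only those bright enough were tested.

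Upstream windows are shown for Hesx1 and Six3, the 2 members above background in both channels on all arrays, with a window in the RefSeq table, that were above 0 in pair 1 and below 0 in pairs 2 and 3, and for Otx2, whose ratios stayed near 0. Each is the 250 bases before an annotated start, 5′ to 3′ on the gene's strand, from RefSeq on GRCm38.p6, a build other than the mm9 of the array design. Capitals mark TAATTA, the core that many homeodomain proteins bind, and TAATCC, the Otx-type core, searched on both strands (GGATTA on the other strand, and TAATTA reads the same on both). The windows lie at chr14:27000112-27000361 on the plus strand for Hesx1, chr17:85620584-85620833 on the plus strand for Six3 and chr14:48667645-48667894 on the minus strand for Otx2.
Hesx1: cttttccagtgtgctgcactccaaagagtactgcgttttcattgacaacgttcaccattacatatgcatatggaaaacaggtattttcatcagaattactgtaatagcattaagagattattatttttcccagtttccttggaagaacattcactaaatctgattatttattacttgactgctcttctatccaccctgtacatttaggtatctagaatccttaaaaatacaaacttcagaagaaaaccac
Six3: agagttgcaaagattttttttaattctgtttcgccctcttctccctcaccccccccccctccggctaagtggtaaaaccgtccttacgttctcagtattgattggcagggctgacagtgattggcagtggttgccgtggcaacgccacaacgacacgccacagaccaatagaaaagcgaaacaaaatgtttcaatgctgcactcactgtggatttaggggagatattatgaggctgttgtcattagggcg
Otx2: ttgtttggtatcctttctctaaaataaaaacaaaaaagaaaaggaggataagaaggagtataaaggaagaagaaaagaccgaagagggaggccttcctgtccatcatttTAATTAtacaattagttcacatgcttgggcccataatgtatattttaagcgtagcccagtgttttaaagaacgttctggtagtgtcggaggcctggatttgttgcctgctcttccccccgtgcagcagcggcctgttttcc

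In these windows TAATTA occurred 1 time, in that of Otx2, and TAATCC in none. Otx2 has other windows too, and the one at chr14:48667509-48667758, which overlaps the one shown, held neither core. Of all 32851 windows of this length, 4.84% held TAATTA and 6.25% held TAATCC. Across the 15 windows of 8 members that were used, 2 held TAATTA, both of Otx2. The second of these, before another Otx2 start, held 3 copies of TAATTA and 1 of TAATCC. No window of Vax2 or Rax was used, so these counts do not cover those genes. The GC content was 34% for Hesx1, 48.8% for Six3 and 42% for Otx2, and 52.4% in the median of all windows. A match is a description of the letters and not of binding.

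Other genes of the forebrain and eye programme, and of the midbrain and hindbrain, were taken from 4 lists grouped by role, with Meox1 of the somite also listed. Of 72 tested genes 1, Cer1, was higher in Cy5, none was lower (background 1.29% and 0.0934%), and 6 had an unadjusted p below 0.05, where 17.3% of all genes did. Cer1, a secreted antagonist of Nodal, BMP and Wnt in the anterior endoderm, had median spot intensities of 286, 400.5 and 377.5 in Cy3 and 849, 924.5 and 913.5 in Cy5. Its log2 ratios of 0.82, 0.82 and 0.60 were close to those of Vax2 in each pair, with a mean of 0.74 ± 0.09 (SE, n = 3; limma adjusted p = 0.0356). Like Vax2 it no longer passed without any 1 pair or without the bright genes, fits in which no gene on the array passed.

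In the anterior forebrain list none of 15 tested genes passed (2 at an unadjusted p below 0.05), and the median log2 ratio was 0.00. Nkx2-1, the hypothalamic factor induced by Shh, had -0.25, -0.29 and -0.64, with a mean of -0.40 ± 0.11, and was well above background in Cy3 on 2 arrays and in Cy5 on none. Zic5 had 0.26 ± 0.08, Emx1 0.28 ± 0.11 and Nr2f1 -0.53 ± 0.22, the last with -1.19 in pair 1 against -0.24 and -0.15. In the optic vesicle and lens list none of 21 passed (1 at an unadjusted p below 0.05), with a median of 0.02. Aldh1a3, a retinaldehyde dehydrogenase of the eye and face, differed most between pairs. Its Cy3 intensities were 148, 401 and 168 and its Cy5 intensities 291, 957 and 1683.5, which gave log2 ratios of 0.14, 0.86 and 2.60. Mab21l2, needed for the optic vesicle, had 0.38 ± 0.15, Tbx5, a gene of the dorsal retina and heart, -0.21 ± 0.09, and Maf, a lens regulator, 0.24 ± 0.10 (SE, n = 3).

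The head organizer and signal list, 24 genes with Cer1 as its one call, had a median of -0.09. Lhx1, Hhex and Fgf8 had mean log2 ratios of 0.36 ± 0.12, -0.26 ± 0.13 and -0.19 ± 0.10. Shh, the midline signal above Vax and Pax2 genes, was chosen after its values were seen, and had 0.27, -0.20 and -1.44, close to Hesx1 in every pair. Of 12 genes in the midbrain and hindbrain list none passed (1 at an unadjusted p below 0.05, Hoxb1 at 0.45 ± 0.17), and the median was 0.06. That list also holds Meox1, a somite gene that is among the embryo's own tissue markers as well. Pax3 (0.18 ± 0.12), Pax5 (-0.12 ± 0.08) and En2 (0.34 ± 0.24) were the next genes by p there, Pax5 being well above background on 2 arrays in Cy3 and on none in Cy5.

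**Figure D3:**
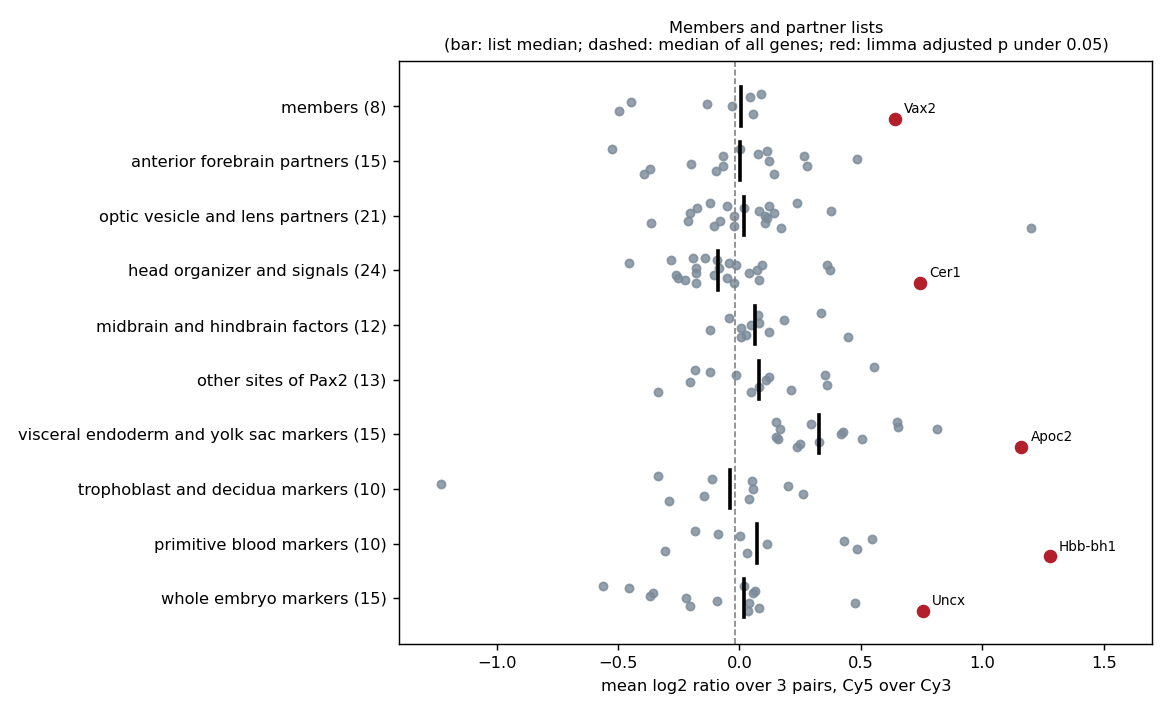
Mean log2 ratio of Cy5 over Cy3 over 3 pairs (x axis) for each tested gene of the members and of 9 other lists (y axis, with the number tested), a bar at each list's median and a dashed line at the median of all genes. Red points passed the limma threshold. The forebrain and eye lists centre near 0 with Vax2 and Cer1 apart, and all visceral endoderm points lie above 0.

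Markers of other tissues also differed between the channels, and several of them were very bright. Of 15 visceral endoderm and yolk sac markers all were above 0, with medians of 0.20, 0.43 and 0.55 in pairs 1, 2 and 3. Apoc2 passed the threshold (mean log2 ratio 1.16 ± 0.12; limma adjusted p = 0.0296), and Rbp4 (0.81 ± 0.11), Apoe (0.50 ± 0.08) and Ttr (0.65 ± 0.14) did not. Their summed normalized intensity ran from 718951 to 1101310 in Cy3 and from 1037540 to 1504830 in Cy5. The trophoblast and decidua markers had medians of -0.15, -0.49 and 0.55, and summed intensities of 74473 to 92092 in Cy3 and 56280 to 84071 in Cy5. None of 10 passed in limma, and 1 had an unadjusted p below 0.05, Alpl at -0.29 ± 0.10 (SE, n = 3). Prl8a2, which did not, had -0.74, -3.55 and 0.60. Dio3 had a mean of 0.26 ± 0.16 and Gcm1 of -0.34 ± 0.27. The primitive blood markers had medians of -0.49, 0.72 and 0.45. Their summed intensities were 311603 to 1153300 in Cy3 and 657281 to 1163950 in Cy5. Hbb-bh1 passed at 1.28 ± 0.16 (limma adjusted p = 0.0418), and the other 9 did not. Of all 10, 7 had a mean above 0 and 3 below it, and 9 were below 0 in pair 1, 0 in pair 2 and 3 in pair 3. Hba-x had 0.55 ± 0.20, Hba-a1 0.48 ± 0.28 and Epb42 -0.18 ± 0.23. The part of these tissue markers in the ratios of Vax2, Rax and Hesx1 was not tested. In whole embryos, fewer cells of a type and less RNA per cell cannot be told apart.

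The embryo's own tissue markers had a median of 0.02. Of 15 measured 1 passed, Uncx of the posterior somite (0.75 ± 0.09; limma adjusted p = 0.0376). Its signal was low, with spots of 131, 147.5 and 105.5 in Cy3 and 347, 375.5 and 357.5 in Cy5, though well above background on all arrays. Tnnt2 of heart muscle had -0.36 ± 0.08, Tcf15 of the somite 0.48 ± 0.14 and T, the brachyury gene of the notochord and tail bud, -0.56 ± 0.19 (SE, n = 3).

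The genes whose ratios were most like those of Vax2, by root mean square difference over the 3 pairs among 14721 named genes, were Fabp7 (0.05), Morf4l2 (0.053), Rpl27 (0.056), Clec1b (0.065) and Calm2 (0.067). Fabp7, a lipid carrier of radial glia, had 0.61, 0.60 and 0.58.

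The authors' deposited table lists 9 of the 16 member probes, for 8 of the genes. Turned to Cy5 over Cy3, its log2 ratio was 0.71 for Vax2 (adjusted p = 0.278), -0.48 for Rax (0.57), -0.51 for Hesx1 (0.628) and 0.10 for the bright Pax6 probe (0.673). No member had an adjusted p below 0.05 in the authors' deposited table, and Vax2 and Vax1 had unadjusted p-values of 0.00217 and 0.00659 there. For these 4 probes its direction was that of the ratios computed here.

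**Figure D4:**
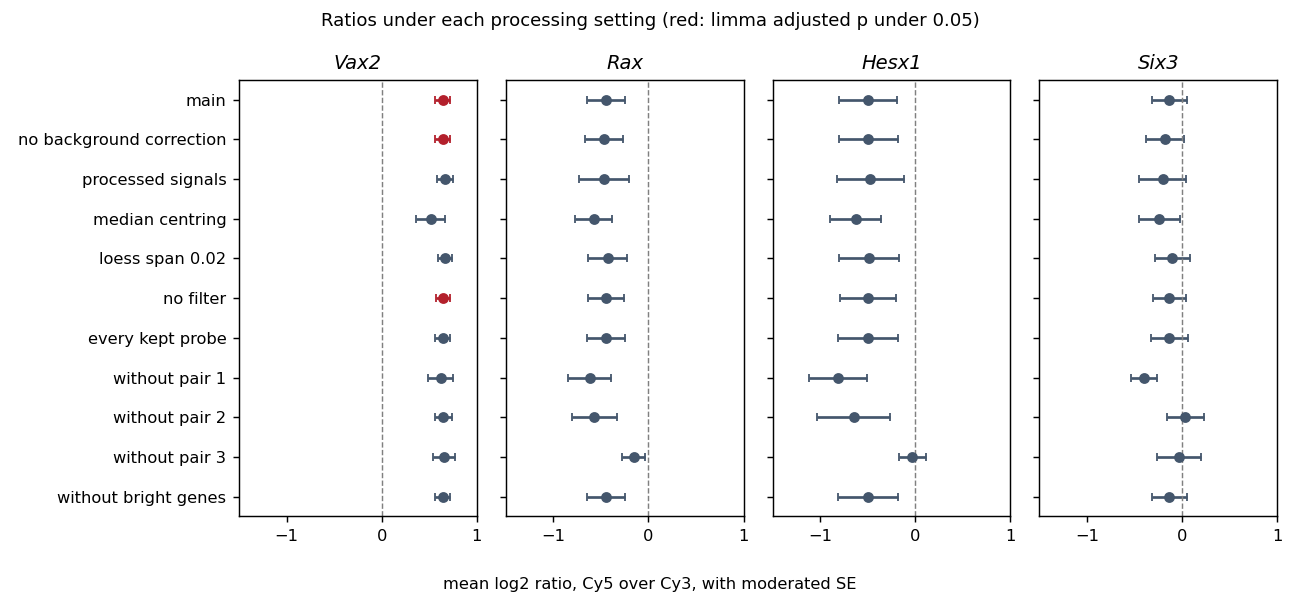
Mean log2 ratio of Cy5 over Cy3 with its moderated SE (x axis) under each processing setting (y axis) for Vax2, Rax, Hesx1 and Six3, in red where the limma adjusted p was below 0.05. Vax2 stays between 0.51 and 0.66 and is red under 3 of 11 settings. Rax and Hesx1 stay below 0 and come closest to it without pair 3, at -0.16 and -0.03, and Six3 is slightly above 0 without pair 2.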

How the data were processed

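The 3 pairs of 2-colour Agilent arrays were read, 1 array per pair. Amplification of 350 ng of total RNA preceded dye coupling, per the labels' protocols. The deposited intensity values are median spot and local background brightness from Feature Extraction 10.7.3.1, and its processed signals, background-subtracted and dye-normalized, served as an alternative, per the file headers. All arrays share 1 slide and scan, and a batch effect of either was untestable. The authors' deposited table holds log2 ratios, p-values and scores (moderated t and log odds) made with limma, per the submitters' processing notes, with its settings not given in the sources used here.

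Background was corrected with normexp (offset 50) and ratios were normalized by loess (span 0.3, with weight 0 for controls and outliers). After outliers were dropped, spots of a probe were averaged. Probes well above background in 1 channel on at least 2 arrays, by at least 0.5 of their spots, were kept (31603 of 55681), with the brightest for each of 23554 genes. Mean ratios were tested against 0 (limma 3.58.1, R 4.3.3, two-sided, Benjamini-Hochberg over all genes, threshold 0.05). Errors are moderated SE, and only 3 arrays limit the precision. Normalized intensities by channel were taken after Aquantile scaling of the loess values. RefSeq accessions gave 27656 probes a symbol through the GRCm38.p6 gene table. The test was checked on simulated data.

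All members were named, with up to 4 genes of smallest unadjusted p from each other list and the 5 genes nearest to the member of largest ratio. Of the genes this rule names, 1 is not reported here. Members, lists and alternatives were chosen with earlier results of these data known. The alternatives were no background correction, processed signals, median centring, a loess span of 0.02, no filter, every kept probe, omission of each pair and, chosen after seeing the data, omission of bright genes.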

Additional observations from a re-analysis of the deposited data

How the results depend on the processing

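The number of tested members past the limma threshold was 1 (Vax2) as reported, without background correction and without the filter on dim probes. It was 0 with processed signals (1 at an unadjusted p below 0.05), median centring (3), a loess span of 0.02 (1), every kept probe tested on its own (1) and without the genes above a mean log2 intensity of 16 (1), and 0 to 0 when 1 pair was omitted (1 to 4). The number among the partner lists was 1 (Cer1) and became 0 under those same alternatives and 0 to 0 without 1 pair, with 3 to 7 genes at an unadjusted p below 0.05. Over all genes 326 passed as reported, 321 without background correction and 399 without the filter. With processed signals, a loess span of 0.02, any pair omitted or bright genes left out, 0 genes passed on the whole array. The losses under these settings are therefore not particular to Vax2 and Cer1. Median centring gave 651 calls, and every kept probe gave 257 of 31603. Testing every kept probe and omitting bright genes change the set tested with Vax2, and for the other losses the cause was not tested. Vax2 had the same direction under all 10 alternatives. With median centring Lhx2 turned to -0.0599, Pax6 to -0.0494 and Pax2 to 0.000175, and Pax2 was 0.0241 without background correction. With 1 pair omitted the ranges were -0.00394 to 0.11 for Lhx2, -0.0265 to 0.14 for Otx2, -0.12 to 0.0306 for Pax2 and -0.40 to 0.0351 for Six3, none of which passed in any setting. The median of the members lay between -0.06 and 0.07. Signal near background limits what can be said of Vax1, Six6 and Pax2.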

Other observations

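The genes nearest to 3 further members were looked up after their values were seen, by the same root mean square difference over the 3 pairs among 14721 named genes. For Hesx1 they were Shh (0.08), Tbx6 (0.185), Pax9 (0.234), Fgf4 (0.238) and Rax (0.269). Tbx6 and Fgf4 are genes of the tail bud and presomitic mesoderm, and Pax9 marks the pharyngeal endoderm and sclerotome. In pair 3 their log2 ratios were -1.44 for Shh, -1.27 for Tbx6, -1.10 for Pax9 and -1.26 for Fgf4. A second kept probe of Tbx6, not used in the comparison, had 0.13, -0.01 and -0.56 in pairs 1, 2 and 3. For Rax the nearest was Gli1 (0.115), a target of Hedgehog signalling, with -0.28, -0.29 and -1.10, followed by Vtn, T, Hapln3 and Maneal. For Six3 they were H2-Ab1 (0.033), Fgf5 (0.039), Rbmxl2, Tsx and Olig3.

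Pair 3 also held large ratios of both signs among the 72 partner genes. Past 0.5 on the log2 scale 9 were below and 9 above 0, against 3 and 6 in pair 1 and 3 and 6 in pair 2. Over all genes 2.99% were below and 4.58% above that limit in pair 3, 7.59% and 8.03% in pair 2, and 3.66% and 3.38% in pair 1. Fezf2 (-0.88) and Fgf15 (-0.77) of the forebrain and Foxa2 (-0.63) of the midline lay below 0 in pair 3, and Dlx2 (1.22) and En2 (1.07) above it. No test was made of a difference between pairs, since each pair is 1 array.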
